A study of Mus musculus with 20 samples.

Results

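Enteroendocrine cells are the hormone-secreting cells of the gut lining, and 10 of their genes were followed here across the 5 groups of mice: Gcg, Pyy, Insl5, Cck, Nts and Sst, which encode hormones, Chga and Chgb, which encode granule proteins, Tph1, which encodes an enzyme of serotonin synthesis, and Neurod1, which encodes a transcription factor. The genes were taken by name, through the probe sets that carry their symbol alone, out of 21423 gene symbols with values on the arrays. Total RNA of the middle part of the colon was hybridised to Affymetrix arrays, 1 array for each of 20 female C57BL/6JOlaHsd mice of about 11 weeks, and the values are log2 expression as deposited. A difference of 1 on this scale is a doubling, and background signal compresses the differences of dim probe sets.

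The untreated healthy group (mice 2, 4, 6 and 7) had no treatment by its label, and the probiotic healthy group (mice 4, 5, 6 and 7) received the bacterial strains L930BB and IM386 through an intragastric tube. The other 3 groups had 3% DSS (dextran sulphate sodium), which injures the colonic lining, in their drinking water for 5 days. Of these, the untreated colitis group (mice 5, 6, 7 and 10) had no treatment beside DSS by its label, the probiotic colitis group (mice 3, 5, 7 and 8) was given the strains before and during DSS, and the cyclosporine colitis group (mice 4, 7, 9 and 10) was given cyclosporine A (CsA), a calcineurin inhibitor, orally at 25 mg/kg a day from day 1 to day 15. The design of the series names saline as the treatment of both untreated groups, and how it was given was not used here. CsA was suspended in methocel and the strains in saline. No healthy group received CsA or methocel, so the drug and its vehicle cannot be told apart, nor can CsA be separated from DSS by a healthy CsA group. A mouse number names an animal within its group alone. Mice were housed several to a cage, and the cage of each mouse was not used here.

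Enteroendocrine cells are scattered singly through the epithelium, sense the gut contents and release peptides or serotonin towards nerves and blood. In the colon, L cells make the proglucagon product GLP-1 together with peptide YY and INSL5, enterochromaffin cells make serotonin, and D cells make somatostatin. Each cell stores its product in dense-core granules, whose matrix holds chromogranins. These cells arise from crypt progenitors under transcription factors of the basic helix-loop-helix family, Neurod1 among them, which bind the E-box, a short motif that reads CANNTG.

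Gcg and Insl5 varied together from mouse to mouse, though less closely than each did with some genes outside the 10, as described further on. The start regions of both these L cell hormone genes and of Pyy, which the same cells make, are printed for that reason. Each is the stretch of 250 bases before the most upstream RefSeq start of the gene on the assembly GRCm38.p6, read on the gene's strand, which is the minus strand for all of the printed genes. Capitals mark each CANNTG, a pattern that is its own reverse complement, and the TATA motif TATAAA on the printed strand. A match is a description of these letters and no binding was measured.
Gcg, chr2:62483654-62483903, minus strand: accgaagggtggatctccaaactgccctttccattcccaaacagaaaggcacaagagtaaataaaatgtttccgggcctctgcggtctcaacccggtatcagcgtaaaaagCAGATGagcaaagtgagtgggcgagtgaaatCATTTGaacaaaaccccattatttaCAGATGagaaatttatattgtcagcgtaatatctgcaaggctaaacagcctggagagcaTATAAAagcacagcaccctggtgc
Insl5, chr4:103027272-103027521, minus strand: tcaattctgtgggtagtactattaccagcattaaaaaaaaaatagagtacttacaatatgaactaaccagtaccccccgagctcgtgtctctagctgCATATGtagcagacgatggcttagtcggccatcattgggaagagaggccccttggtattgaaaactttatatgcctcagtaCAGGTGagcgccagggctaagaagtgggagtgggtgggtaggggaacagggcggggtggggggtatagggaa
Pyy, chr11:102107833-102108082, minus strand: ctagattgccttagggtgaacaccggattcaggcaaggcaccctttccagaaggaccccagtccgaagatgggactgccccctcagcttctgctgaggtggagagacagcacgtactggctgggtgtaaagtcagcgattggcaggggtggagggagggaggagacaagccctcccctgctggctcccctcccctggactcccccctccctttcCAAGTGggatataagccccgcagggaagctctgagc
The Gcg stretch holds 3 CANNTG motifs, of which those at 139 and 83 bases before the start read CAGATG, and a TATAAA at 24 bases before the start. The Insl5 stretch holds CATATG at 153 and CAGGTG at 72 bases before the start, and the Pyy stretch holds CAAGTG at 36. CANNTG occurred in 9 of the 10 genes and in 66.1% of 27025 RefSeq promoters cut the same way. CAGATG, searched on both strands as CAGATG or CATCTG and contained in CANNTG, occurred in 2 of the 10 (Gcg and Cck) and in 14.5% of all. TATAAA occurred in 1 of the 10 and in 8.13% of all. The motifs were chosen after the expression values had been seen.

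A gene entered the tests if its value exceeded 5.30 on at least 4 of the 20 arrays, which 9 of the 10 genes and 16739 of all symbols did. Nts, which encodes neurotensin, lay under this level on all 20 arrays (3.83 to 4.93) and was not tested. Neurod1 exceeded it on 5 arrays, spread over 4 groups. Cck exceeded it on 8 arrays, including all 4 of the untreated colitis group, 2 of probiotic colitis, 1 each of probiotic healthy and cyclosporine colitis, and 0 of the untreated healthy group. The other 7 genes exceeded it on every array. Fewer enteroendocrine cells and less RNA per cell cannot be told apart in RNA of whole tissue, for any of the results that follow.

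In untreated colitis, Chga, Tph1 and Sst were lower than in untreated healthy mice and Cck was higher, while the 3 L cell hormone genes and Chgb did not pass the test. In probiotic colitis, compared with probiotic healthy mice, 7 genes were lower, the L cell hormones among them. In cyclosporine colitis, compared with untreated healthy mice, Chga alone passed the test. Each change is a log2 difference with its standard error after the ± sign, from limma fitted over all 20 arrays with 4 mice a group, and a gene is called changed at a Benjamini-Hochberg adjusted p under 0.05 over the 16739 genes.

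**Figure D1:**
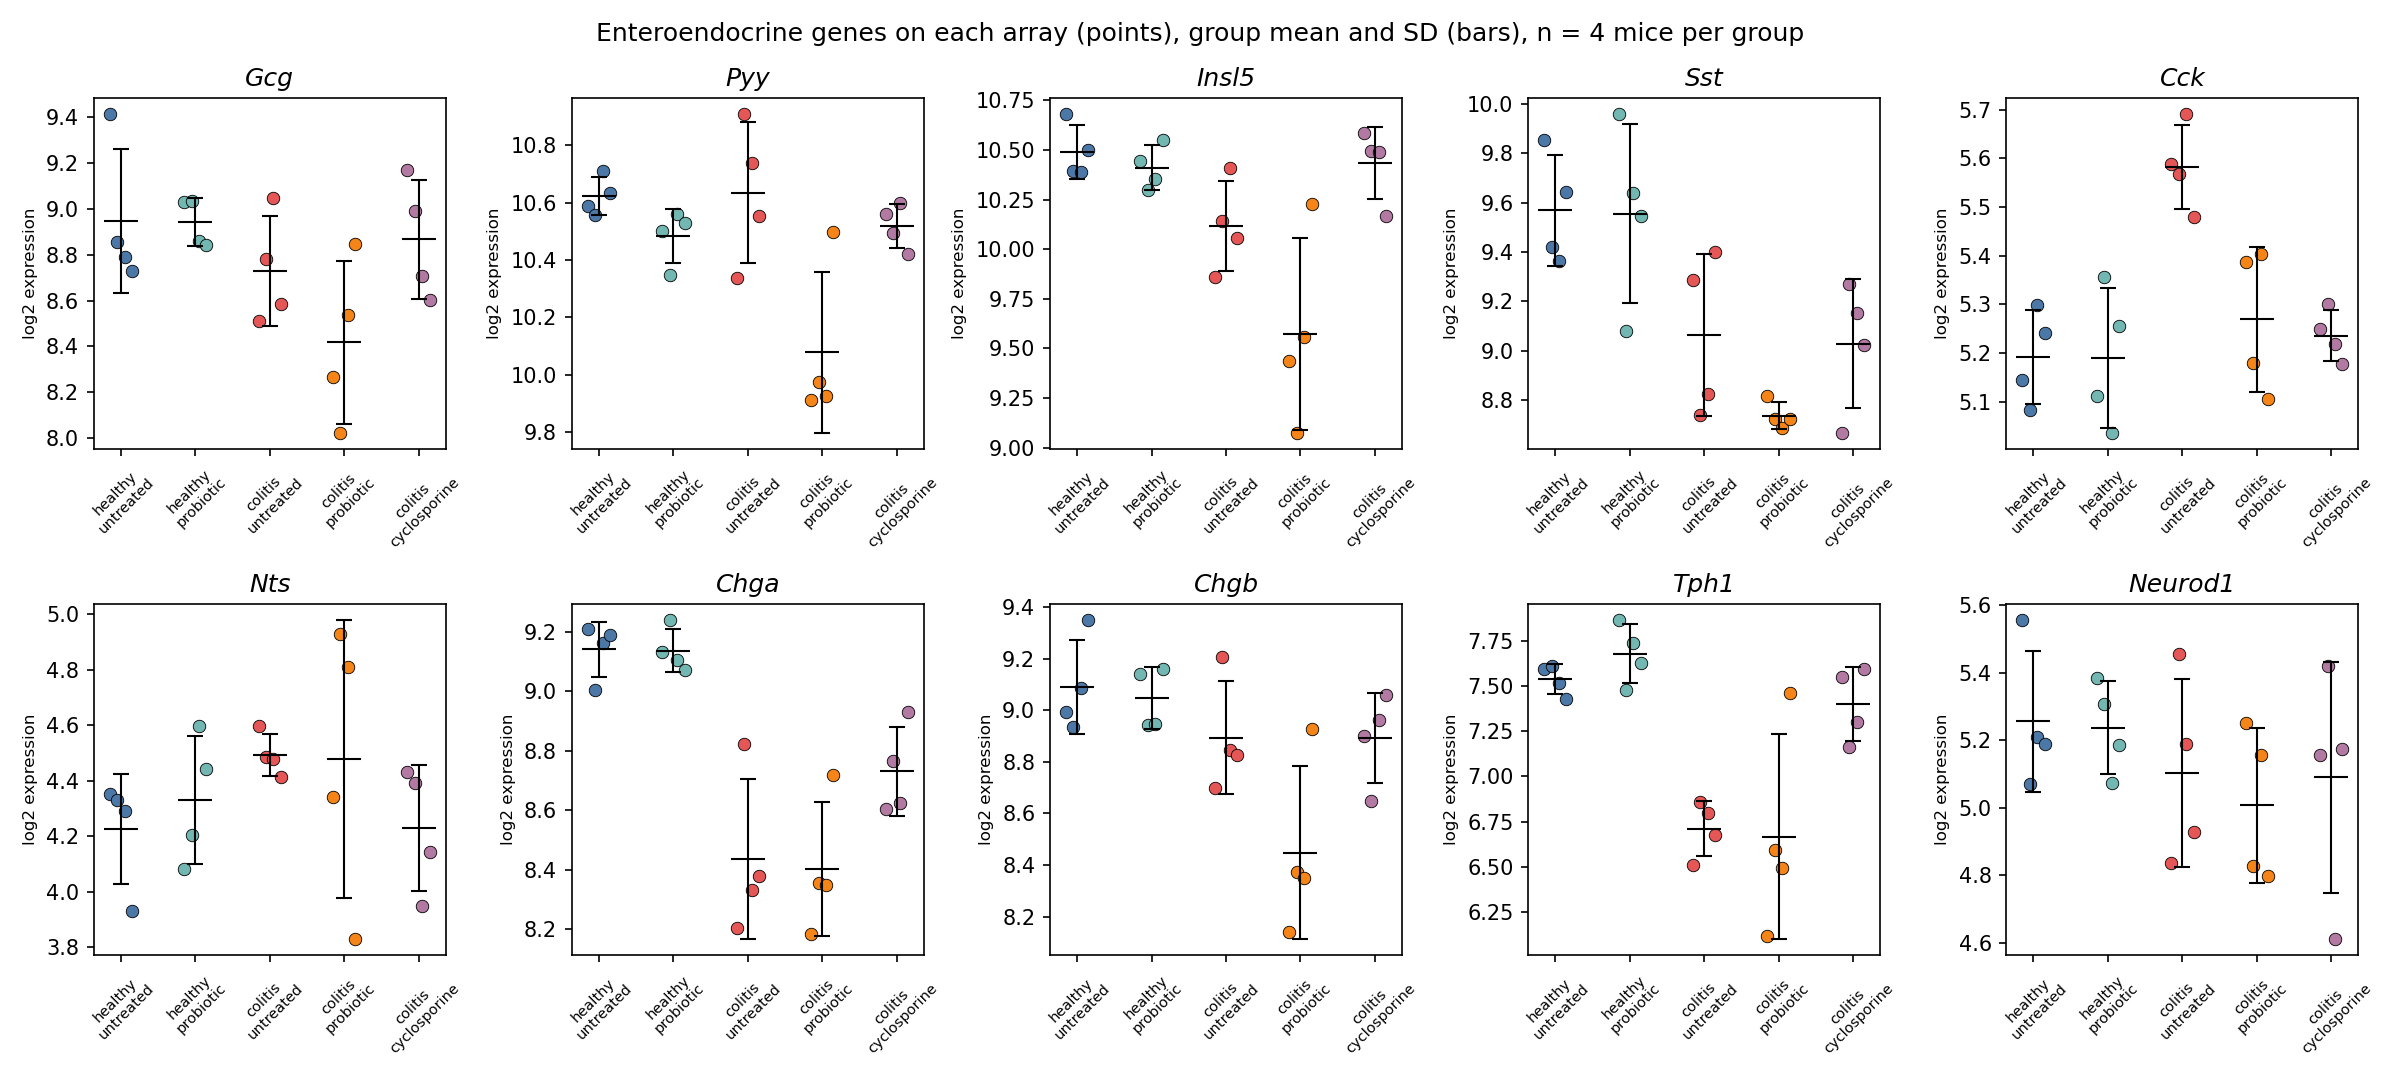
Log2 expression of the 10 genes on each array (points) by group, with the group mean and SD (bars), n = 4 mice a group; each panel has its own axis, which does not start at 0. Tph1 in untreated colitis lies between 6.51 and 6.86, under all healthy arrays, and Insl5 in probiotic colitis ranges from 9.07 to 10.23, mouse 8 being the highest.

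Gcg encodes proglucagon, the precursor of GLP-1 and GLP-2, and lies on chromosome 2 (62474530 to 62483653). Its levels were 9.41, 8.86, 8.79 and 8.73 in untreated healthy mice 2, 4, 6 and 7, and 8.51, 8.78, 9.05 and 8.58 in untreated colitis mice 5, 6, 7 and 10. The ranges overlapped, and the change of -0.22 ± 0.17 did not pass (limma adjusted p = 0.394). In probiotic healthy mice 4, 5, 6 and 7 Gcg stood at 9.03, 9.03, 8.86 and 8.84, and in probiotic colitis mice 3, 5, 7 and 8 at 8.27, 8.02, 8.54 and 8.85. Mouse 8 fell just inside the healthy range and the other colitis mice lay under it. Gcg was lower by this comparison (-0.52 ± 0.17, limma adjusted p = 0.0278), a call lost when mouse 4 or 5 of the healthy group or mouse 3 or 5 of the colitis group was left out (adjusted p 0.066 to 0.115). The cyclosporine colitis mice 4, 7, 9 and 10 had 9.17, 8.99, 8.71 and 8.60, within or just under the untreated healthy range.

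Pyy encodes peptide YY, which slows gut transit and reduces appetite, and lies on chromosome 11 (102106676 to 102107832). Untreated healthy mice had 10.59, 10.56, 10.71 and 10.63 and untreated colitis mice 10.34, 10.91, 10.74 and 10.55, in the order of mice given above, which is kept from here on. The colitis range lay around the healthy one, and the change was 0.01 ± 0.12 (limma adjusted p = 0.958), with a 95% interval from -0.24 to 0.26. Probiotic healthy mice had 10.50, 10.35, 10.56 and 10.53 and probiotic colitis mice 9.91, 9.97, 9.93 and 10.50. Of the latter, 3 lay under every healthy array and mouse 8 lay among them. The difference was -0.41 ± 0.12 (limma adjusted p = 0.0139), and the adjusted p was 0.053 without probiotic colitis mouse 3 and 0.051 without mouse 7. In cyclosporine colitis mice Pyy stood at 10.56, 10.49, 10.60 and 10.42, a change of -0.10 ± 0.12 from untreated healthy mice that did not pass.

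Insl5 encodes a relaxin-family peptide made by colonic L cells and lies on chromosome 4 (103017872 to 103027271). Its levels were 10.68, 10.40, 10.39 and 10.50 in untreated healthy and 9.86, 10.14, 10.41 and 10.06 in untreated colitis mice. Of the colitis mice, 3 lay below the healthy range and mouse 7 within it. The change of -0.37 ± 0.17 did not pass (limma adjusted p = 0.116). Probiotic healthy mice had 10.44, 10.30, 10.35 and 10.55 and probiotic colitis mice 9.44, 9.07, 9.56 and 10.23, and these groups did not overlap. Insl5 fell by 0.84 ± 0.17 on the log2 scale (limma adjusted p = 0.0010), and by 1.05 ± 0.13 without probiotic colitis mouse 8. Cyclosporine colitis mice had 10.58, 10.50, 10.49 and 10.17, 3 of them within the untreated healthy range (-0.06 ± 0.17).

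Sst encodes somatostatin, which inhibits the release of other gut hormones, and lies on chromosome 16 (23889573 to 23891342). Untreated healthy mice had 9.85, 9.42, 9.36 and 9.64 and untreated colitis mice 9.29, 8.74, 8.83 and 9.40. Only untreated colitis mouse 10 reached the healthy range. The change was -0.51 ± 0.17 (limma adjusted p = 0.0375), and the call was lost without untreated healthy mouse 2 (adjusted p 0.116) or 7 (0.083), and without untreated colitis mouse 6 (0.114) or 7 (0.112), with array weights (0.143) and when these groups were fitted alone (0.06). Probiotic healthy mice had 9.96, 9.08, 9.64 and 9.55, a wide range, and probiotic colitis mice 8.82, 8.72, 8.69 and 8.73, a narrow one below it. This difference was -0.82 ± 0.17 (limma adjusted p = 0.0014). Cyclosporine colitis mice had 8.67, 9.27, 9.15 and 9.02, all below the untreated healthy mice, and the change of -0.54 ± 0.17 did not pass (limma adjusted p = 0.069).

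Cck encodes cholecystokinin, the hormone of I cells, which contracts the gallbladder and signals satiety, and lies on chromosome 9 (121489824 to 121495694). It stood at 5.14, 5.08, 5.30 and 5.24 in untreated healthy mice, all at or under the filter level, and at 5.59, 5.57, 5.69 and 5.48 in untreated colitis mice, all above it. The groups did not overlap, and the change was 0.39 ± 0.08 (limma adjusted p = 0.0017), or 1.31-fold. In probiotic colitis mice Cck stood at 5.39, 5.18, 5.40 and 5.11, against 5.11, 5.36, 5.04 and 5.26 in probiotic healthy mice. These groups overlapped and the difference of 0.08 ± 0.08 did not pass (limma adjusted p = 0.514). The cyclosporine colitis mice, at 5.25, 5.30, 5.22 and 5.18, overlapped the healthy groups. Cck is also made by neurons, which the tissue contains.

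Nts lies on chromosome 10 (102481756 to 102490418). Its values were 4.35, 4.33, 4.29 and 3.93 in untreated healthy and 4.08, 4.205, 4.60 and 4.44 in probiotic healthy mice. They were 4.60, 4.49, 4.48 and 4.41 in untreated colitis, 4.34, 4.93, 4.81 and 3.83 in probiotic colitis and 4.43, 4.39, 3.95 and 4.14 in cyclosporine colitis mice. These are all below the filter level, and no order among them was read.

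Chga encodes chromogranin A and Chgb chromogranin B, acidic proteins that condense hormones in the granule and mark nearly all endocrine cells. Chga lies on chromosome 12 (102554941 to 102565027) and stood at 9.21, 9.004, 9.16 and 9.19 in untreated healthy and 8.21, 8.82, 8.33 and 8.38 in untreated colitis mice. All colitis mice lay under all healthy mice, with mouse 6 the closest. Chga fell by 0.71 ± 0.12 on the log2 scale (limma adjusted p = 0.0003). Probiotic healthy mice had 9.13, 9.24, 9.10 and 9.07 and probiotic colitis mice 8.18, 8.36, 8.35 and 8.72. These groups did not overlap either, and the difference was -0.73 ± 0.12 (limma adjusted p = 0.0001). Cyclosporine colitis mice had 8.60, 8.77, 8.62 and 8.93, all below the untreated healthy mice and all above 3 of the 4 untreated colitis mice. Their change from untreated healthy was -0.41 ± 0.12 (limma adjusted p = 0.0481), a call lost without any 1 of untreated healthy mouse 2, 6 or 7 or cyclosporine colitis mouse 4, 7 or 9 (adjusted p 0.072 to 0.121), with no filter (0.062) and with arrays centred on their median (0.072).

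Chgb, on chromosome 2 (132781642 to 132795079), stood at 8.995, 8.93, 9.09 and 9.35 in untreated healthy and 8.70, 9.21, 8.85 and 8.83 in untreated colitis mice. Mouse 6 of the colitis group was at 9.21, inside the healthy range, and the other 3 were below it. The change of -0.20 ± 0.14 did not pass (limma adjusted p = 0.343). Probiotic healthy mice had 9.14, 8.94, 8.95 and 9.16 and probiotic colitis mice 8.14, 8.37, 8.35 and 8.93. Mouse 8 lay just under the lowest healthy array and the others far under it. Chgb was lower by this comparison (-0.60 ± 0.14, limma adjusted p = 0.0034). Cyclosporine colitis mice had 8.90, 8.65, 8.96 and 9.06 (-0.20 ± 0.14 from untreated healthy, limma adjusted p = 0.416).

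Tph1 encodes tryptophan hydroxylase 1, the rate-limiting enzyme of serotonin synthesis in enterochromaffin cells, and lies on chromosome 7 (46644641 to 46672537). Its levels were 7.59, 7.61, 7.52 and 7.43 in untreated healthy and 6.51, 6.86, 6.80 and 6.68 in untreated colitis mice. The groups did not overlap, and Tph1 fell by 0.83 ± 0.19 on the log2 scale (limma adjusted p = 0.0031). Probiotic healthy mice had 7.86, 7.48, 7.74 and 7.63 and probiotic colitis mice 6.12, 6.60, 6.49 and 7.46. In the latter, 3 mice lay far under the healthy range and mouse 8 just under it. The difference was -1.01 ± 0.19 (limma adjusted p = 0.0004), and -1.27 ± 0.12 without mouse 8. Cyclosporine colitis mice had 7.55, 7.16, 7.30 and 7.59, overlapping the untreated healthy mice and all above the untreated colitis mice.

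Neurod1, on chromosome 2 (79452637 to 79456636), acts late in endocrine differentiation. It stood at 5.56, 5.07, 5.21 and 5.19 in untreated healthy, 4.84, 5.46, 5.19 and 4.93 in untreated colitis and 5.38, 5.31, 5.07 and 5.19 in probiotic healthy mice. Probiotic colitis mice had 5.25, 4.83, 5.16 and 4.80 and cyclosporine colitis mice 5.155, 5.42, 4.61 and 5.17. These ranges all overlapped near the filter level. The changes of -0.15 ± 0.16 in untreated colitis and -0.23 ± 0.16 in probiotic colitis did not pass (limma adjusted p = 0.534 and 0.319). Nor did that of -0.17 ± 0.16 in cyclosporine colitis against untreated healthy mice (limma adjusted p = 0.562). A second probe set lists Neurod1 together with another gene and was not used.

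By count, 1 of the 9 tested genes was higher and 3 were lower in untreated colitis than in untreated healthy mice, where 11.7% of all tested genes were higher and 14.4% lower (26.1% either way). The higher gene was Cck. In probiotic colitis against probiotic healthy mice 7 of 9 were lower and 0 higher, where 16.1% of all genes were lower and 13.6% higher (29.7% either way), and 5 of the 9 were lower with no overlap of the groups, against 17.3% of all genes. The median change of the 9 genes was -0.22 in the first comparison and -0.60 in the second, beside -0.03 and -0.04 over all genes. These 2 comparisons share no array. In cyclosporine colitis against untreated healthy mice, which shares its controls with the first comparison, 1 of 9 was called lower, where 6.02% of all genes were called either way, 3.38% lower and 2.64% higher.

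**Figure D2:**
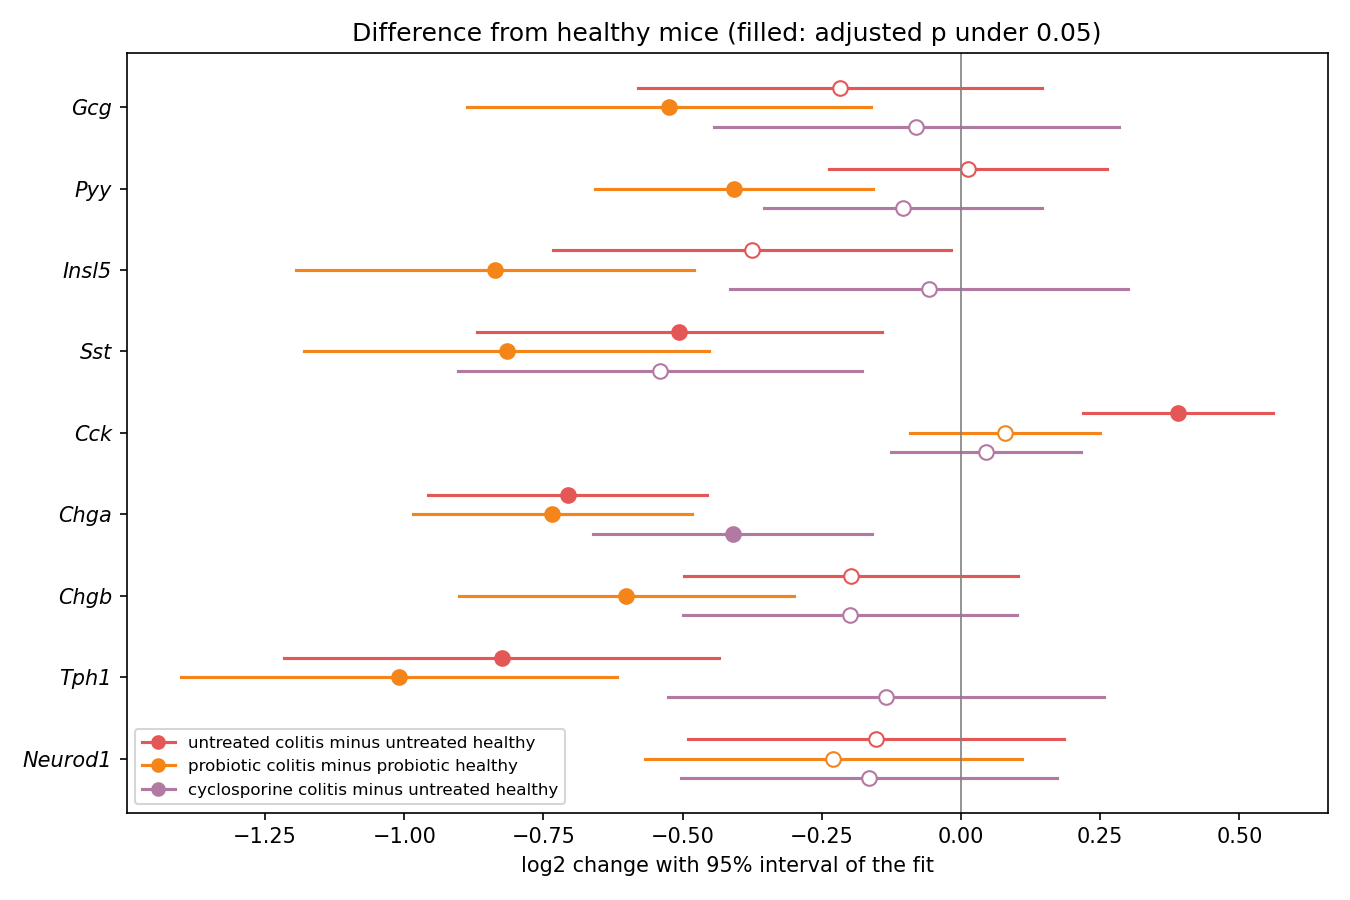
Log2 change from the healthy group (points) with the 95% interval of the fit (lines) for the 9 tested genes, filled where the adjusted p is under 0.05, n = 4 mice a group. Chga, Tph1 and Sst lie left of 0 in both untreated and probiotic colitis, Gcg, Pyy, Insl5 and Chgb are filled in probiotic colitis alone, and Cck lies right of 0 in untreated colitis (0.39).

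The probiotic and untreated colitis groups were compared directly to ask whether the strains changed these genes in colitis. All 10 genes had lower means in probiotic colitis, where 55.5% of all tested genes had lower means. The differences of Nts (-0.02, under the filter level), Chga (-0.03) and Tph1 (-0.04) were close to 0. Among the 9 tested, 2 passed, Pyy (-0.56 ± 0.12, limma adjusted p = 0.0213) and Cck (-0.31 ± 0.08, limma adjusted p = 0.0458). By the same test 2.8% of all genes were called either way, 0.669% lower and 2.13% higher. The call of Pyy was lost when mouse 6 of the untreated or mouse 3, 5 or 7 of the probiotic group was left out (adjusted p 0.065 to 0.095) and in a fit of the compared groups alone (0.204). The call of Cck remained in 1 of the 8 fits that leave out an array of either group (adjusted p 0.045 to 0.155), and was lost with no filter (0.06), with quantile normalization again (0.078), with array weights (0.052) and when these groups were fitted alone (0.203). Insl5 had a change of -0.54 ± 0.17 (limma adjusted p = 0.0918) and Chgb of -0.45 ± 0.14 (limma adjusted p = 0.0974). Without probiotic colitis mouse 8, the highest of its group for both genes, these became -0.76 ± 0.13 (adjusted p 0.002) and -0.61 ± 0.12 (adjusted p 0.007). That fit called 1223 of all genes, against 468 with every array. Over the 8 fits that leave out an array of either group, Insl5 was called in 2 and Chgb in 1. Their limma adjusted p reached 0.303 and 0.344. Insl5 also passed without untreated colitis mouse 5 (adjusted p 0.044) and with array weights (-0.69, adjusted p 0.006), as did Chgb with array weights (-0.53, adjusted p 0.012). Pyy without probiotic colitis mouse 8 was at -0.70 ± 0.10 (limma adjusted p = 0.0006). Gcg, Sst, Chga and Tph1 did not pass in either fit.

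The test of whether colitis changed a gene by a different amount with and without the strains gave 0 calls among the 9 genes and 0 among all 16739, where limma gave an unadjusted p under 0.05 for 2 of the 9 and 1446 of all. The L cell hormones passed in 1 colitis comparison and not in the other, and their difference between the comparisons did not pass: it was -0.42 ± 0.17 for Pyy (limma adjusted p = 0.524), -0.46 ± 0.24 for Insl5 (limma adjusted p = 0.622) and -0.31 ± 0.25 for Gcg (limma adjusted p = 0.756). In healthy mice the strains changed 0 of the 9 genes and 0% of all genes by limma, with an unadjusted p under 0.05 for 0 of the 9 and 1511 of all. The change with the widest distance from 0 among the 9 was that of Tph1, at 0.14 ± 0.19, and the 95% interval of Pyy ran from -0.39 to 0.11.

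Cyclosporine and untreated colitis were compared to ask how the calcineurin inhibitor moved the genes among mice given DSS. Tph1 was higher with CsA by 0.69 ± 0.19 (limma adjusted p = 0.0198), or 1.61-fold, with no overlap of the groups, and Cck was lower (-0.35 ± 0.08, limma adjusted p = 0.0091), also with no overlap. These 2 of 9 calls stand beside 13.2% of all genes called either way (7.58% higher and 5.58% lower). The Tph1 call was lost without untreated colitis mouse 5 or cyclosporine colitis mouse 4 (adjusted p 0.056 in both). Chga had a change of 0.30 ± 0.12 (limma adjusted p = 0.110), and without untreated colitis mouse 6 this was 0.43 (adjusted p 0.012). The L cell hormones and Sst did not pass. The 95% intervals of their differences were -0.23 to 0.50 for Gcg, -0.37 to 0.13 for Pyy, -0.04 to 0.67 for Insl5 and -0.40 to 0.33 for Sst.

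Genes that make, store, clear and sense serotonin were read around Tph1, together with the ion channel genes Trpa1 and Piezo2. Of 13 such genes, 1 was higher and 8 lower in untreated colitis (median -0.46), 2 were higher and 8 lower in probiotic colitis against probiotic healthy mice (median -0.48), and 4 were higher and 1 lower in cyclosporine than in untreated colitis (median 0.31). Over all genes tested, 11.7% were higher and 14.4% lower in the first of these comparisons (median -0.03), 13.6% and 16.1% in the second (median -0.04), and 7.58% and 5.58% in the third (median -0.01). Slc6a4, the transporter that takes up released serotonin, stood at 9.16, 8.87, 9.14 and 9.11 in untreated healthy and 7.25, 7.51, 7.46 and 7.50 in untreated colitis mice, far apart. It fell by 1.64 ± 0.17 on the log2 scale there (limma adjusted p = 2.8e-06), was at -1.56 ± 0.17 in probiotic colitis, and in cyclosporine colitis at -0.78 ± 0.17 from untreated healthy mice (limma adjusted p = 0.0135). Maob, a monoamine oxidase that degrades amines, was lower in the untreated (-1.58 ± 0.19) and probiotic colitis comparisons (-1.48 ± 0.19). Its relative Maoa, which degrades serotonin, was lower too (-0.62 ± 0.11 and -0.86 ± 0.11). Ddc, which makes serotonin from the product of Tph1 and is named here after its values were seen, was lower in probiotic colitis (-1.13 ± 0.17) and in untreated colitis (-0.75 ± 0.17). Qdpr, which regenerates the cofactor of tryptophan hydroxylase, was lower in all 3 colitis groups (-0.49 ± 0.07, -0.48 ± 0.07 and -0.37 ± 0.07). Gch1, which starts the synthesis of that cofactor, was higher in untreated (0.68 ± 0.14) and probiotic colitis (0.72 ± 0.14). With CsA, against untreated colitis, Maob (1.25 ± 0.19), Slc6a4 (0.86 ± 0.17) and Slc18a2, which loads amines into granules (0.36 ± 0.09), were higher, and Gch1 was lower (-0.45 ± 0.14). Between probiotic and untreated colitis 0 of the 13 passed, where 2.8% of all genes were called either way.

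**Figure D3:**
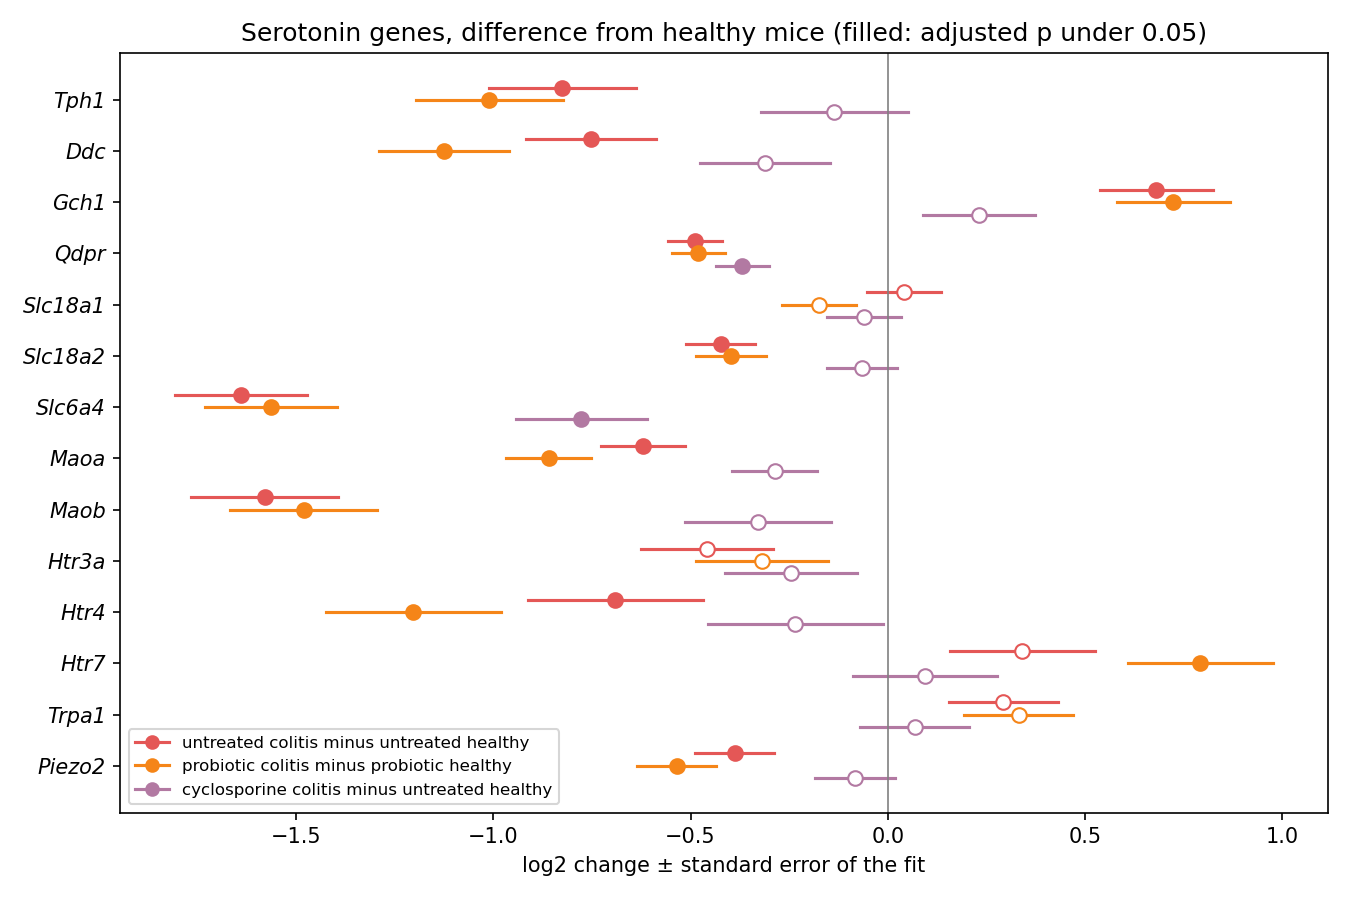
Log2 change from the healthy group ± standard error of the fit for Tph1 and the 13 genes read around it, filled where the adjusted p is under 0.05, n = 4 mice a group. Slc6a4 and Maob lie farthest left in untreated and probiotic colitis (-1.64 to -1.48), Gch1 lies to the right of 0, and most cyclosporine points are nearer to 0 and open.

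Of 14 transcription factors of endocrine differentiation other than Neurod1, 0 were higher and 4 lower in untreated colitis (median -0.25), 6 were lower in probiotic colitis against probiotic healthy mice (median -0.23), and 4 were higher and 0 lower in cyclosporine than in untreated colitis (median 0.15). Of all genes, 14.4% and 16.1% were lower in the first 2 comparisons and 7.58% higher in the third. Mlxipl, a glucose-responsive factor also known as ChREBP, was lower in untreated (-0.85 ± 0.10, limma adjusted p = 1.2e-05), probiotic (-0.81 ± 0.10) and cyclosporine colitis (-0.35 ± 0.10, limma adjusted p = 0.0401), and higher with CsA than in untreated colitis (0.49 ± 0.10). Foxa2, a forkhead factor, was lower in untreated (-0.54 ± 0.12) and probiotic colitis (-0.68 ± 0.12). Etv1 followed (-0.55 ± 0.14 and -0.42 ± 0.14) and was higher with CsA than in untreated colitis (0.69 ± 0.14). Pax4, which directs enterochromaffin and D cells, was at -0.30 ± 0.08 in untreated colitis. Isl1, which is needed by several hormone lineages, was at -0.26 ± 0.09 in probiotic colitis and at 0.35 ± 0.09 with CsA against untreated colitis, both called. St18 was higher with CsA by that comparison (0.51 ± 0.16, limma adjusted p = 0.0376). Many of these factors also act outside endocrine cells.

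Of 19 genes of the secretory granule and of prohormone processing, 0 were higher in any of the colitis comparisons with healthy mice, 6 were lower in untreated colitis (median -0.16) and 13 in probiotic colitis (median -0.33), where 14.4% and 16.1% of all genes were lower. Resp18, a granule protein, was lower in untreated (-0.55 ± 0.08), probiotic (-0.84 ± 0.08, limma adjusted p = 1.1e-06) and cyclosporine colitis (-0.28 ± 0.08, limma adjusted p = 0.0479). Cacna1a, a calcium channel subunit of exocytosis, was lower in untreated (-0.59 ± 0.08) and cyclosporine colitis (-0.27 ± 0.08, limma adjusted p = 0.0445). Scgn, which encodes the calcium sensor secretagogin, was lower in untreated (-0.66 ± 0.13) and probiotic colitis (-0.65 ± 0.13). Pam, which amidates peptides, was at -0.29 ± 0.07 and -0.47 ± 0.07 in the same comparisons, and Cpe, which trims processed prohormones, was at -0.93 ± 0.15 in probiotic colitis, all called. With CsA, against untreated colitis, 3 of the 19 were higher, beside 7.58% of all genes: Scgn (0.63 ± 0.13), Cacna1a (0.33 ± 0.08) and Resp18 (0.27 ± 0.08). Neurons use part of this list too.

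Other hormone and gut peptide genes did not move one way. Of 11 tested, 5 were higher and 1 lower in untreated colitis (median 0.23) and 2 were higher and 1 lower in probiotic colitis (median 0.03). Of all genes, 11.7% were higher and 14.4% lower in the former and 13.6% higher and 16.1% lower in the latter. Tac1, the precursor of substance P, was higher in both (1.22 ± 0.24 and 1.48 ± 0.24), Ghrl (ghrelin, 0.50 ± 0.11) and Gal (galanin, 0.59 ± 0.17) were higher in untreated colitis, and Nmu, which encodes neuromedin U, was lower in both (-0.77 ± 0.15 and -0.82 ± 0.15). Tac1, Gal and Nmu are also made by enteric neurons. Among 12 tested receptors for nutrients and bile acids and glucose uptake genes, 2 were higher and 1 lower in untreated colitis. The counts were the same in probiotic colitis against probiotic healthy mice. In cyclosporine colitis against untreated healthy mice 0 passed, where 6.02% of all genes were called either way. Ffar2, a receptor of short-chain fatty acids that L cells and leukocytes share, was higher in untreated (0.66 ± 0.12) and probiotic colitis (0.77 ± 0.12), and lower with CsA than in untreated colitis (-0.44 ± 0.12). Ffar4, a receptor of long-chain fatty acids, was higher in untreated colitis (0.75 ± 0.22) and lower with CsA than in untreated colitis (-0.70 ± 0.22). Ffar1 was higher in probiotic colitis (0.53 ± 0.17). Slc5a1, the sodium-glucose cotransporter, was lower in untreated (-0.59 ± 0.14) and probiotic colitis (-0.65 ± 0.14).

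Several receptors of the hormones were lower. Of 17 tested, 8 were lower and 0 higher in untreated colitis (median -0.22) and 7 were lower and 0 higher in probiotic colitis (median -0.19), beside 14.4% and 16.1% of all genes lower. Npy1r, a receptor of peptide YY and neuropeptide Y, was lower in untreated (-1.40 ± 0.16, limma adjusted p = 1.0e-05) and probiotic colitis (-0.93 ± 0.16). Sstr1, a somatostatin receptor, was at -0.82 ± 0.14 and -0.76 ± 0.14, both called. Npy4r, which binds pancreatic polypeptide, was at -1.004 ± 0.18 in untreated colitis, and Glp2r, the receptor of the proglucagon product GLP-2, at -0.51 ± 0.12, both called. With CsA 3 of the 17 were higher than in untreated colitis: Npy1r (1.21 ± 0.16), Glp2r (0.55 ± 0.12) and Npy4r (0.63 ± 0.18). By that comparison 7.58% of all genes were higher.

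The mice also differed within their groups, and the deviations from the group means were compared among the 9 genes over 20 arrays in 36 pairs. After adjustment over the 36, 1 pair passed. Gcg and Insl5 varied together (Pearson's r = 0.81, permutation p = 0.00021, adjusted p = 0.00756, Spearman's rho = 0.75, permutation p = 0.00084, adjusted p = 0.0302). With the 2 arrays farthest in Gcg left out, r was 0.77. Within the 12 colitis arrays r was 0.91 (permutation p = 8e-05, adjusted p = 0.00288), and within the 8 healthy arrays it was 0.53 (exact permutation p = 0.264). Without the 3 arrays that stood apart from their groups over all genes (mouse 2 of the untreated healthy, mouse 6 of the untreated colitis and mouse 8 of the probiotic colitis group) r was 0.77 and did not pass after adjustment (permutation p = 0.0154, adjusted p = 0.385). Chgb and Tph1 had r = 0.76 over all arrays (permutation adjusted p = 0.0575) and r = 0.90 within the colitis arrays (permutation adjusted p = 0.0101). Among the others, r was 0.76 for Pyy with Chgb, 0.73 for Pyy with Insl5, 0.73 for Chga with Chgb and -0.62 for Cck with Tph1, none of which passed.

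**Figure D4:**
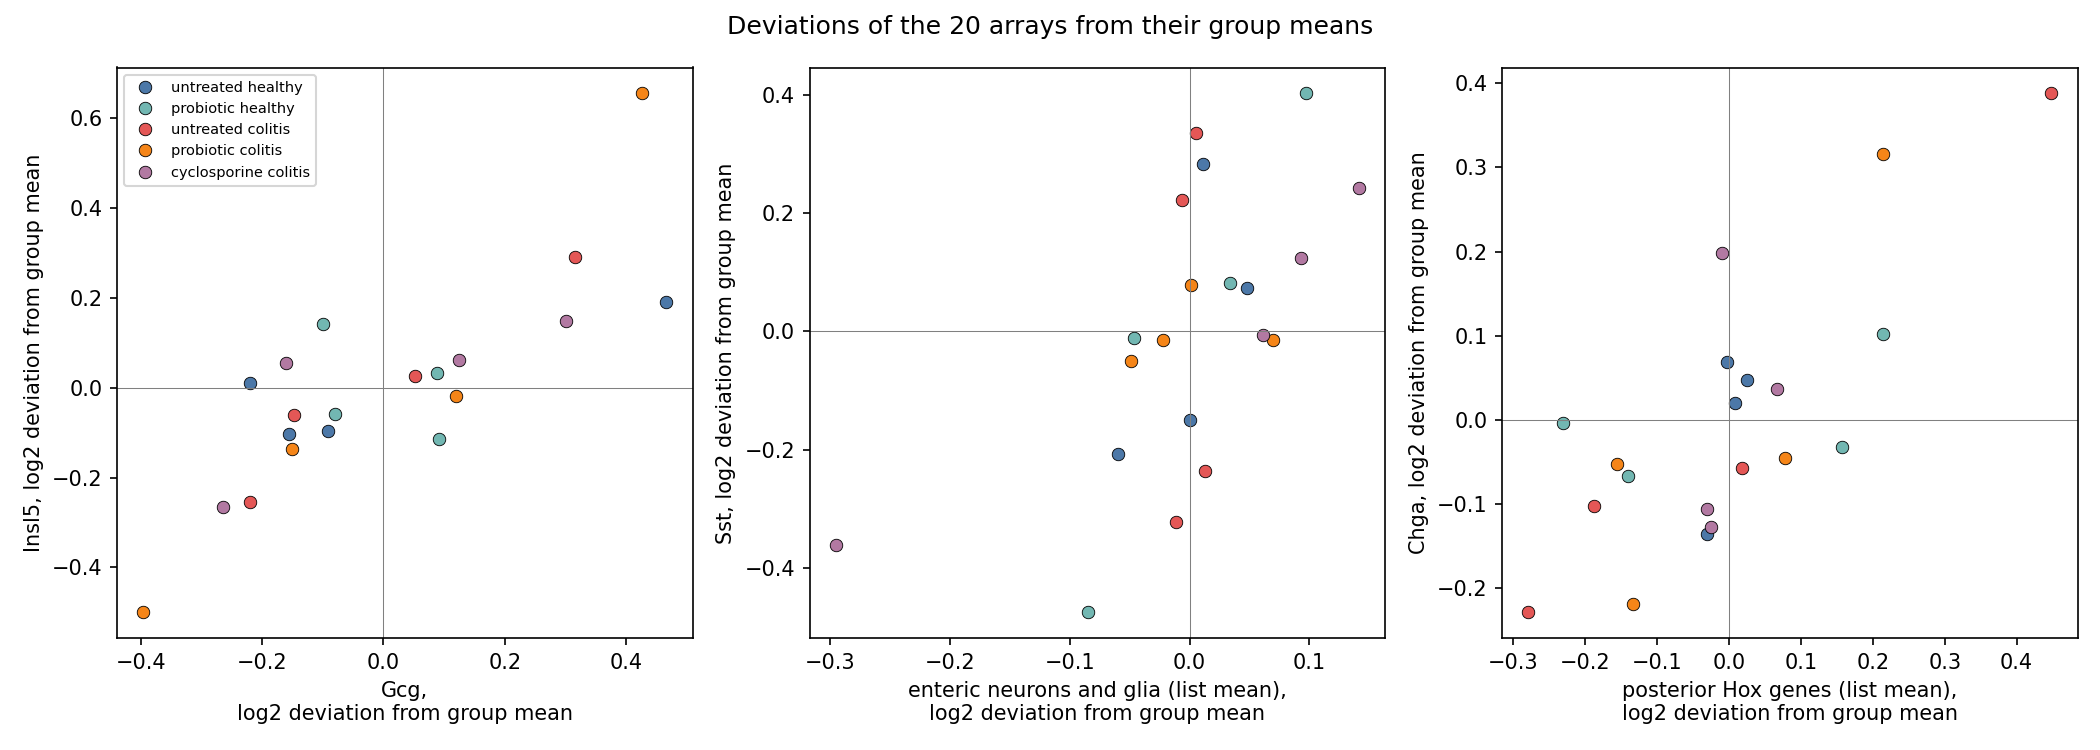
Deviations of the 20 arrays from their group means on the log2 scale, for Insl5 against Gcg, Sst against the mean of the enteric neuron and glia genes, and Chga against the mean of the posterior Hox genes, coloured by group. Gcg and Insl5 deviate together (r = 0.81), with the widest spread among the probiotic colitis mice.

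The genes whose deviations were most like those of each hormone gene over the 20 arrays, by Pearson's r and with no test, were Msra (0.88), Foxa3 (0.85) and Akirin1 (0.84) for Gcg. For Pyy they were Robo2 (0.93), Smim6 (0.91) and Ttll6 (0.90), and for Insl5 they were Klk1, Myb and Lrig3 (0.88 each). Sst was nearest to Pih1d1 (0.79), Ccdc92b (0.79) and Fam89a (0.77), and Cck to Zfp282 (0.74), Ap2a2 (0.70) and Stk32a (0.70). Chga was nearest to Cela1 (0.89), Ces2g (0.86) and Foxq1 (0.85), and Chgb to Tspan8 (0.86), Tm4sf20 (0.85) and Hoxb13 (0.83). Tph1 was nearest to Ezr (0.87), Mob4 (0.87) and Atf3 (0.85), and Neurod1 to Prss54 (0.82), Mst1 (0.82) and Otog (0.80). Symbols of predicted genes, cDNA clones, microRNAs and small nucleolar RNAs were left out beforehand. The values are the highest among the remaining symbols of the 16739 genes and share the same arrays.

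Markers of the tissue were read beside these results. All 12 pan-epithelial markers, such as Epcam, Cdh1 and Vil1, exceeded the filter level on every array. Their mean ranged from 10.88 to 11.00 in untreated healthy and 10.77 to 10.87 in probiotic healthy mice. It ranged from 10.66 to 10.95 in untreated colitis, 10.70 to 10.78 in probiotic colitis and 10.71 to 10.93 in cyclosporine colitis mice. Of the 12, 0 were higher and 2 lower in untreated colitis, and 1 was higher and 3 lower in probiotic colitis. Over all genes, 11.7% were higher and 14.4% lower in the former and 13.6% and 16.1% in the latter. Of 4 genes of mature colonic epithelium (Car1, Slc26a3, Aqp8 and Cdx2), the first 3 were lower in untreated (-1.26 ± 0.12, -1.18 ± 0.16 and -1.56 ± 0.20) and probiotic colitis (-1.63 ± 0.12, -1.68 ± 0.16 and -1.96 ± 0.20). Between probiotic and untreated colitis 1 of these 4 was lower and 0 higher (median -0.52). By that comparison 0 of the 12 pan-epithelial markers were called (median -0.08), and 0.669% of all genes were lower. Of 6 pancreas markers with values, 4 were too dim to test, Ins2 and Iapp among them, and the other 2 did not pass in any comparison. The part of these shifts in the hormone gene results was not tested.

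Genes of other cell types were read in the same comparisons. Over all genes, 11.7% were higher and 14.4% lower in untreated colitis, and 13.6% and 16.1% in probiotic colitis. Between cyclosporine and untreated colitis, 7.58% were higher with CsA and 5.58% lower. Of 7 posterior Hox genes, whose expression depends on the position in the gut, 5 were lower in untreated and 6 in probiotic colitis. The list mean ran from 8.33 to 8.39 in untreated healthy and, more widely, from 8.08 to 8.53 in probiotic healthy mice. It ran from 7.38 to 8.11 in untreated colitis, 7.62 to 7.99 in probiotic colitis and 8.19 to 8.29 in cyclosporine colitis mice. Of 12 genes of enteric neurons and glia, 2 were higher and 5 lower in untreated colitis, and 0 were higher and 6 lower in probiotic colitis. Their list mean was 7.06 to 7.16 in untreated healthy, 6.87 to 6.89 in untreated colitis, 7.04 to 7.22 in probiotic healthy and 6.77 to 6.89 in probiotic colitis mice. In cyclosporine colitis mice it was 6.72 to 7.16, with mouse 4 the lowest and the next at 7.08. Of 12 smooth muscle genes, 11 were lower in untreated and 8 in probiotic colitis, and 10 were higher in cyclosporine than in untreated colitis. Of 9 neutrophil genes, 8 were higher in untreated and in probiotic colitis (median 2.32 and 2.47). Mast cells also hold Tph1, and their part in its levels was not tested. Of 11 mast cell genes 5 were too dim to test, Tpsab1, Fcer1a and Ms4a2 among them. Among the 6 tested, 3 were higher and 1 lower in untreated colitis. Of 9 goblet cell genes, 5 were higher in untreated colitis and 0 lower, and of 8 tuft cell genes 1 was higher and 1 lower. Of 8 stem cell genes, 3 were higher and 5 lower in untreated colitis, the lower ones including Lgr5 (-1.13 ± 0.20).

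Deviations of the 9 genes were set against the means of 3 of these lists (pan-epithelial, neurons and glia, posterior Hox) in 27 relations, of which 2 passed, the lists having been chosen after the values had been seen. Sst varied with the neuron and glia mean (r = 0.63, permutation p = 0.00069, adjusted p = 0.0175, rho = 0.65, permutation adjusted p = 0.0459), with r = 0.57 after the 2 arrays farthest in the mean were left out, 0.59 within the colitis and 0.86 within the healthy arrays. Neither passed within its set (permutation adjusted p = 0.237 and 0.305), and within the colitis arrays r was 0.16 after the 2 farthest were left out. Somatostatin is also made by enteric neurons. Chga varied with the posterior Hox mean (r = 0.77, permutation p = 0.0013, adjusted p = 0.0175, rho = 0.70, permutation adjusted p = 0.0202), with r = 0.57 after the 2 arrays farthest in the mean were left out. Over the colitis arrays alone r was 0.86 and over the healthy arrays 0.41, neither of which passed (permutation adjusted p = 0.120 and 0.789), and without the 3 arrays that stood apart it was 0.42 (permutation adjusted p = 0.654).

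The 3 arrays that stood apart also bear on the changes. Without them Sst in untreated colitis was at -0.30 (limma adjusted p = 0.272) and was not called, Chgb in untreated colitis was at -0.33 (limma adjusted p = 0.043) and was called, and in probiotic colitis against probiotic healthy mice the same 7 genes were called, with 33.7% of all genes called. In that fit Insl5 (-0.75, limma adjusted p = 0.007) and Chgb (-0.50, limma adjusted p = 0.023) were called lower in probiotic than in untreated colitis, as was Pyy, while Cck was not (-0.26, limma adjusted p = 0.131). There 3.73% of all genes were called. Chga was called higher in cyclosporine than in untreated colitis in that fit (0.43, limma adjusted p = 0.002), where 18.3% were. The serotonin list kept its counts, 1 higher and 8 lower of 13 in untreated and 2 and 8 in probiotic colitis. Over all arrays the medians lay between 6.22 and 6.29 and the correlations of pairs between 0.965 and 0.994. Arrays give no read depth, and the precision depends on their number and on the spread of each gene.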

How the data were processed

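The authors deposited log2 values per probe set, made with RMA per the submitters' processing notes (version not given in the sources used here), and these were taken without renormalization. Of 41801 probe sets, 29195 had values, and 22360 of these carried 1 gene symbol, 1013 several and 5822 none. Where a gene had several probe sets the one with the highest mean was taken. Probe sets exceeding 5.30 (the 25th percentile) on at least 4 arrays were kept, which left 16739 genes. Group means were fitted over all 20 arrays in R 4.3.3 with limma 3.58.1 (lmFit and eBayes) and tested in 7 comparisons, with Benjamini-Hochberg adjustment over all genes in each. The scripts were tested on simulated data. Each array takes its group and mouse number from its title, and the arrays are separate mice.

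The genes, gene lists and tests were chosen with earlier results of these data known. All 10 genes are reported in every group, up to 4 genes of each other list by smallest p in untreated colitis against untreated healthy mice, those of the transcription factor, granule, serotonin and nutrient receptor lists that passed elsewhere, and the 3 genes nearest to each hormone gene by Pearson's r, predicted genes, clones and small RNAs left out. Correlations used deviations from group means, with 100000 resamples (all 576 within-group arrangements for 8 arrays) in Python 3.11.15. Positions and promoters are from RefSeq on GRCm38.p6, and 16660 tested genes were found there by gene identifier. Alternatives tried were other filters, scalings and weights, eBayes with trend, the mouse number as a block, fits of only the groups compared, and fits without each array in turn or without the 3 that stood apart.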

Additional observations from a re-analysis of the deposited data

Results flagged for a closer look

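Of the 50 groups of 4 values that were examined (10 genes in 5 groups), 2 held an array far from the other 3, and chance gives such a value in about 1 of 20 groups. Pyy in probiotic colitis mouse 8 was at 10.50, while the other 3 mice of that group lay between 9.91 and 9.97. The same mouse was also the highest of its group for Gcg, Insl5, Chga, Chgb and Tph1, and it is one of the 3 arrays that stood apart from their groups over all genes. Nts in untreated healthy mouse 7 was at 3.93, while the other 3 mice lay between 4.29 and 4.35, all of them below the level at which genes were tested.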

How the results depend on the processing

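The number of hormone genes called in untreated colitis against untreated healthy mice (4 of 9), in probiotic colitis against probiotic healthy mice (7) and in the tests of the strains in healthy mice and of the difference between colitis comparisons (0 each) stayed within 1.5 times of these values under every filter, scaling, weighting, block and subset tried. In cyclosporine colitis against untreated healthy mice the count of 1 became 0 with no filter and with arrays centred on their median. In probiotic against untreated colitis the count of 2 became 1 with no filter, with a filter at the 50th percentile, with quantile normalization again and with eBayes using trend and robust, and 0 in a fit of the compared groups alone. In cyclosporine against untreated colitis the count of 2 became 1 with the filter at the 50th percentile, which Cck does not pass. With 1 array left out at a time the counts ranged from 3 to 4, 5 to 7, 0 to 1, 0 to 0, 0 to 3, 1 to 3 and 0 to 0, for untreated colitis, probiotic colitis and cyclosporine colitis against healthy, the strains in healthy mice, probiotic and cyclosporine against untreated colitis, and the difference between colitis comparisons. Of 1192 values of single genes under alternatives, 1135 kept their side of the threshold, 45 lost and 12 gained a call, 0 called values changed sign and 82 changed sign without being called. The count of correlated pairs (1 of 36) was 2 in the colitis arrays, 0 in the healthy arrays, 0 without the 3 arrays that stood apart, and 1 with either scaling.

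Over all genes, the 468 calls in probiotic against untreated colitis became 1682 with array weights and 0 in a fit of those groups alone, and ranged from 71 (without probiotic colitis mouse 5) to 1223 (without probiotic colitis mouse 8). The 1008 calls in cyclosporine colitis against untreated healthy mice became 539 in a fit restricted to those groups and, with 1 array left out at a time, went down to 371 (without untreated healthy mouse 2). The 2202 calls in cyclosporine against untreated colitis became 1119 in a fit restricted to those groups and 1353 without cyclosporine colitis mouse 7. The 0 calls for the strains in healthy mice became 19 in a fit of those groups alone, and the 0 calls for the difference between colitis comparisons became 5 with array weights, 13 without the 3 arrays and 45 without probiotic colitis mouse 8. The causes were not tested.

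Mouse numbers are shared between groups but do not pair the mice. Arrays of the same number in different groups had a median correlation of deviations of 0.02 (20 pairs, -0.19 to 0.43), and arrays of other numbers -0.01 (140 pairs). With the number as a block, the count of called hormone genes became 0 in cyclosporine colitis against untreated healthy mice and 1 in cyclosporine against untreated colitis, and the calls over all genes became 25 and 219 in cyclosporine colitis against untreated healthy mice and in probiotic against untreated colitis, and 1 for the difference between colitis comparisons. The block gave no call for Sst in untreated colitis (adjusted p 0.201), Chga in cyclosporine colitis against untreated healthy mice (0.312) or Cck in probiotic (0.117) and cyclosporine against untreated colitis (0.057), and a call for Insl5 in probiotic against untreated colitis (-0.83, adjusted p 0.008).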
